A study of Mus musculus with 24 samples.

Results

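Cell division is run by a small set of protein machines whose genes are switched on together, and 49 mouse genes of these machines were followed here through early fat cell formation in 2 adipose depots. The genes were taken by their symbols from the rows of the expression table, and 48 of the 49 had a row among the 49452 genes listed. *Cdt1* was not analysed here. By role, the set held 9 regulators of G1 and of entry into S phase, 8 measured genes of replication licensing, 4 of DNA synthesis, 7 cyclins and kinases of S phase, G2 and mitosis, 10 genes of chromosomes, centromeres and the mitotic checkpoint, 9 of the spindle and cytokinesis, and the proliferation marker *Mki67*. The 24 libraries came from primary precursor cells of C57BL/6 mice, the stromal-vascular fraction that is left when mature adipocytes are removed, isolated from brown adipose tissue (BAT) or epididymal, that is visceral white, adipose tissue (vWAT). Cells of each depot received either a non-targeting siRNA (siCtrl) or an siRNA against the long non-coding RNA *H19* (siH19) by nucleofection and were collected before differentiation (day 0, d0) or at day 3 (d3). The 8 groups of depot, siRNA and day held 3 libraries each. The sample titles call the control siKO and the siRNA against *H19* siH19_3, and name no other siRNA against *H19*. Effects of this siRNA on RNAs other than its target were not tested. The induction medium held insulin, dexamethasone and rosiglitazone, with IBMX for vWAT and indomethacin and T3 for BAT (the sources differ on IBMX in BAT), and was followed by a medium with rosiglitazone for vWAT or T3 for BAT, so that depot and medium differ together at d3. All mice were male, and BAT of several mice was pooled where needed. The labels do not say whether the 3 libraries of a group came from separate isolations, so p-values measure the spread between these libraries, which may be technical.

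A cell that enters the cycle first makes D-type cyclins, which activate Cdk4 and Cdk6. E-type cyclins with Cdk2 then release E2F transcription factors from the pocket proteins and start S phase, in which the Mcm helicase unwinds DNA, Pcna clamps the polymerase and ribonucleotide reductase and thymidylate synthase supply the building blocks. Later, cyclin A and the B-type cyclins with Cdk1, the Aurora and Polo kinases, the kinetochore and the spindle divide the chromosomes. CDK inhibitors of the Cip/Kip and Ink4 families hold this sequence back, and in precursors of fat cells exit from the cycle goes along with terminal differentiation.

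Many of these genes share short promoter letters, and 6 promoters are shown because they belong to members that the results below turn on. The letters searched on both strands were CCAAT (the box bound by NF-Y), TTTGAA (the core of the cell cycle genes homology region, CHR) and GCGGGAA or GCGCGAA (a core of E2F sites). RefSeq promoters of 300 bases (250 before the start and 50 after it, build GRCm38.p6) were given for 39 of the 48 genes, with 43 promoters in all. CCAAT stood in 76.7% of the 43, against 37.4% of all 32851 promoters of the same length. The CHR letters stood in 48.8% against 17.9%, and the E2F letters in 23.3% against 6.0%. By role, the CHR letters stood in 8 of the 9 promoters of spindle and cytokinesis genes and in 1 of the 7 licensing promoters, while the E2F letters stood in 6 of the 7 licensing promoters and in 0 of the 10 promoters of chromosome and checkpoint genes. A match describes letters only. The stretches below lie before both the RefSeq start and the gene model of the expression table, run 5′ to 3′ on the strand of the gene, and carry the matches in capitals. *Cdk1*, *Top2a* and *Cdc20* stand for mitotic genes with CCAAT and CHR letters, *Mcm6* for licensing genes with E2F letters, *Rrm2* for a synthesis gene with a single CCAAT box, and *Ccne1* for a gene with none of the letters in the printed stretch. Over the 43 promoters, 2 pairs of matches of different motifs overlapped.
Cdk1, chr10:69352939-69353162, minus strand: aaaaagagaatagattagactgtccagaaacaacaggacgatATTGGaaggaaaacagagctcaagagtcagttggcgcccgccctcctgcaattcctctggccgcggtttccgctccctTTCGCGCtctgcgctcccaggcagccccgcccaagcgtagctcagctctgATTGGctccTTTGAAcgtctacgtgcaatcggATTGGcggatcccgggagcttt
Top2a, chr11:99024190-99024439, minus strand: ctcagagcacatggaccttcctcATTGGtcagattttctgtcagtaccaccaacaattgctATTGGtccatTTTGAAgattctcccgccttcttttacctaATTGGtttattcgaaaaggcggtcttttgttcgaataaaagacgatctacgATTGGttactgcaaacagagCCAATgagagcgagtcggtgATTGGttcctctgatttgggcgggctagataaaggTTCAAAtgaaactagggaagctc
Cdc20, chr4:118437353-118437593, minus strand: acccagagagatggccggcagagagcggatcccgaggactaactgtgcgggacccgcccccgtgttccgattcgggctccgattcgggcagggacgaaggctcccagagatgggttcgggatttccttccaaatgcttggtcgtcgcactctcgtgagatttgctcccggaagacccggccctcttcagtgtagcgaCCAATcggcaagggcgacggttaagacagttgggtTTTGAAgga
Mcm6, chr1:128359706-128359955, minus strand: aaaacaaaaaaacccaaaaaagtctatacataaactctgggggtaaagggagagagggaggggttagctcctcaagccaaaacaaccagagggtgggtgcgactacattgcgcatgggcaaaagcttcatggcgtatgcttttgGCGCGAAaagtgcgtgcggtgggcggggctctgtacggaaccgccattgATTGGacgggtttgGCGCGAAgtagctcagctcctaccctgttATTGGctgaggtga
Rrm2, chr12:24708004-24708240, plus strand: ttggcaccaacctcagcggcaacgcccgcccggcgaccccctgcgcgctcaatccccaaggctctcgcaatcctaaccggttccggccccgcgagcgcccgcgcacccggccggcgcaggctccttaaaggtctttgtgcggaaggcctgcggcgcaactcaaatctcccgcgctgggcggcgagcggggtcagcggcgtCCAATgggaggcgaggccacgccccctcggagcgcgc
Ccne1, chr7:38107535-38107740, minus strand: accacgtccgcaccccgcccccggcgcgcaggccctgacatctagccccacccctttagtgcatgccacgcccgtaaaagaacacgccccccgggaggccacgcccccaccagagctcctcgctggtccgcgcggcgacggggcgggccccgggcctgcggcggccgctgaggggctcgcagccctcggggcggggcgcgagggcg

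The targeted RNA was measured first. *H19* stood at 108, 160.4 and 122 FPKM (a fragment count corrected for transcript length and for library size) in BAT siCtrl d0 and at 2.82, 5.201 and 5.05 in BAT siH19 d0, and at 99.7, 86.3 and 83.2 against 12.04, 12.2 and 16.9 at d3. In vWAT it stood at 12.3, 11.3 and 11.6 against 1.23, 0.63 and 1.76 at d0, and at 8.67, 8.19 and 8.896 against 0.327, 0.29 and 0.966 at d3. The siH19 libraries thus lay below all their siCtrl libraries in each depot and day, and the remaining share of the mean was 0.153 in BAT d3, the largest of the 4. Total reads are unknown, since no counts were given, but relative depth read from the steps of low values was 0.83 to 0.99 in BAT and 1.01 to 1.18 in vWAT. The column names of the 2 depots carry different prefixes whose meaning is not given in the sources used here, and whatever they mark cannot be told apart from depot and medium. The 3 mesothelial markers *Upk3b*, *Msln* and *Wt1* summed to 31.6 to 83.2 FPKM in vWAT and to at most 0.709 in BAT. By contrast, the muscle regulators *Myod1* and *Myog* were present in BAT and *Myog* was listed at 0 in all vWAT libraries. Of the 4 muscle markers listed, 2 had a mean of at least 1 FPKM in each BAT group. *Pax7* was near 0 throughout, and *Myf5* reached 1 FPKM in too few BAT libraries to be tested.

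All 48 genes were detected in every library. Their levels, which FPKM allow to compare between genes, ran from a mean of 1.702 FPKM over the 24 libraries for *Cdk6* to 362 for *Cdk4*, both of them partners of the D-type cyclins. Next to *Cdk4* came cyclin D3 (*Ccnd3*, 182) and cyclin D2 (*Ccnd2*, 159.7), and *Cdk1* followed at 63.7. The median over the 48 genes lay at 15.5 to 17.1 FPKM in the BAT siCtrl d0 libraries, 9.19 to 11.5 in BAT siCtrl d3, 13.4 to 14.4 in BAT siH19 d0 and 11.7 to 12.7 in BAT siH19 d3. In vWAT the range over all 12 libraries was 15.3 to 19.7. The control BAT libraries at d3 were thus the lowest of all. Replicates were close for most genes, with a median coefficient of variation of 7.90% over genes and groups. Single libraries stood apart for *Cenpf* (6.21 FPKM in vWAT siH19 d0 replicate 1, against 2.77 and 1.99) and *Bub1* (9.05 in BAT siH19 d3 replicate 2, against 4.14 and 3.63).

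**Figure D1:**
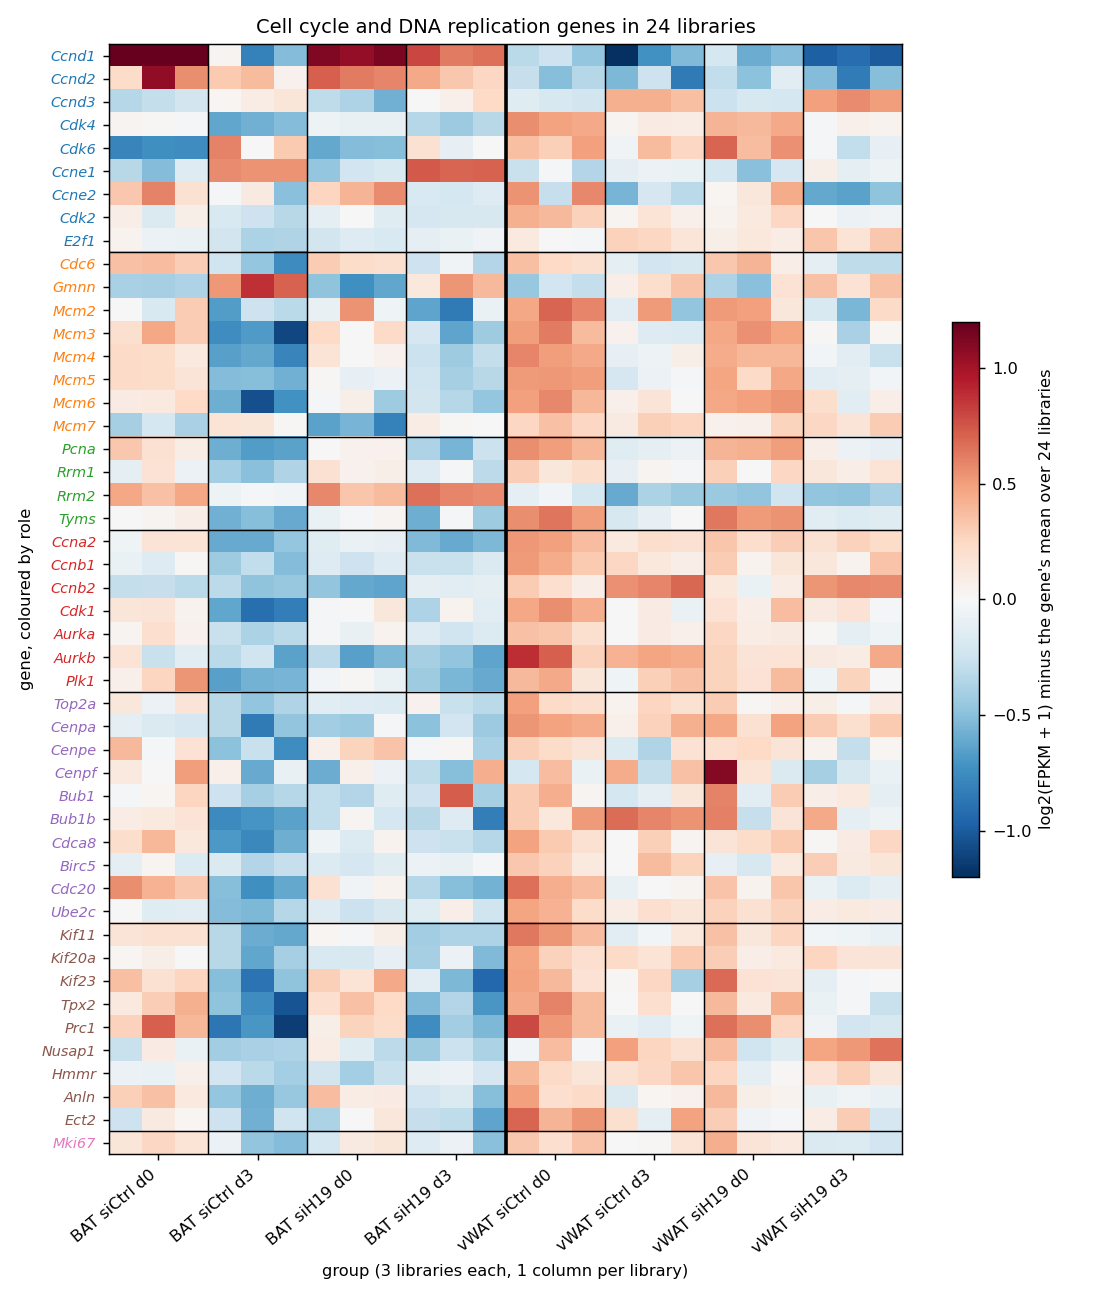
Log2(FPKM + 1) of the 48 genes (rows, ordered and coloured by role) in 24 libraries (columns, 3 per group), each gene centred on its own mean, with red for above and blue for below the mean. The BAT siCtrl d3 columns are the bluest, whereas *Gmnn*, *Cdk6* and *Ccne1* are above their mean there, and *Ccnd1* is highest in BAT at d0.

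The first question was what happened to these genes as control brown precursors began to differentiate. From d0 to d3 most of them fell in BAT siCtrl cells: 31 of 48 were lower at d3 and 4 were higher (adjusted p under 0.05 and at least 1.3-fold), or 64.6% and 8.33%. The background was 35.3% of 13001 tested genes called lower and 29.9% called higher, and the median log2 difference was -0.48 over the 48 genes and -0.10 over all tested genes. The falls ran through replication, mitosis and cytokinesis, while geminin, cyclin E1, Cdk6 and Mcm7 rose.

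Among the G1 genes, cyclin D1 fell most. *Ccnd1* (chr7:144929931-144939925, GRCm38) stood at 28.6, 28.8 and 28.7 FPKM at d0 and at 12.1, 6.26 and 7.9 at d3. All d3 libraries lay far below all d0 libraries, a 3.28-fold lower mean (log2 difference -1.65 ± 0.20 SE, adjusted p = 0.00027). *Ccnd2* overlapped between the days, with 174, 313 and 221 against 187, 195 and 155 FPKM, and *Ccnd3* was higher in every d3 library without reaching 1.3-fold, at 140, 145 and 152 against 180.3, 189 and 197. Of their kinases, *Cdk4* fell (log2 difference -0.58 ± 0.04) whereas *Cdk6* rose from 0.494, 0.55 and 0.54 to 2.895, 1.59 and 2.21 FPKM (1.06 ± 0.15, adjusted p = 0.00065), a change between low levels.

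The E-type cyclins, which drive Cdk2 into S phase, went opposite ways. *Ccne1* rose from 13.1, 11.4 and 15 to 25.4, 24.9 and 24.8 FPKM, with no overlap (0.88 ± 0.09, adjusted p = 0.00014). *Ccne2* went from 10.9, 13.3 and 9.77 to 8.37, 9.22 and 5.73 FPKM (-0.50 ± 0.18, adjusted p = 0.04), a call that was lost without d0 replicate 1 or 2 or d3 replicate 1 or 3 (adjusted p 0.057 to 0.11). The S phase activator *E2f1* stood at 6.59, 6.02 and 5.96 and then 5.32, 4.66 and 4.74 FPKM, a shift under 1.3-fold.

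Most licensing genes and all synthesis genes fell. Of the 8 licensing genes 6 fell, with *Mcm3* leading from 15.1, 18.4 and 16.3 to 7.37, 7.75 and 5.596 FPKM (-1.16 ± 0.13). *Mcm5* went from 15.9, 15.8 and 14.97 to 8.997, 9.12 and 8.61 (-0.74 ± 0.06), and *Mcm6* from 24.99, 25.3 and 27.8 to 15.2, 10.7 and 13.6 (-0.94 ± 0.12). The subunits of this one helicase did not all fall. *Mcm7* rose from 19.5, 22.4 and 19.8 to 29.3, 29.1 and 26.4 FPKM (0.44 ± 0.07), and *Mcm2* went from 20.4, 17.8 and 25.3 to 12.4, 16.9 and 16.1 with an adjusted p of 0.035, a call lost without d0 replicate 1 or 3 or d3 replicate 1 or 3 (0.052 to 0.092). Geminin, the inhibitor that blocks a second round of licensing, rose most on the log2(FPKM + 1) scale (by the ratio of means, *Cdk6* rose 4.23-fold and *Gmnn* 2.24-fold): *Gmnn* (chr13:24751845-24761923) stood at 11.4, 11.3 and 11.6 FPKM at d0 and 22.3, 28.8 and 25.6 at d3 (1.09 ± 0.09, adjusted p = 4.5e-05). All 4 synthesis genes fell. The clamp *Pcna* went from 55.6, 50.05 and 46.99 to 29.02, 27.3 and 27.9 FPKM (-0.83 ± 0.07), and the small subunit of ribonucleotide reductase, *Rrm2*, from 76.04, 70.4 and 75.99 to 52.7, 53.8 and 53.8 (-0.46 ± 0.04).

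Every gene of the mitotic groups had a difference below 0, though not all passed the test. Of the 7 S/G2 and mitotic cyclins and kinases 4 fell, of the 10 chromosome and checkpoint genes 7, and of the 9 spindle and cytokinesis genes 6. *Cdk1*, the kinase that starts mitosis, went from 68.7, 69.1 and 63.6 to 39.9, 32.5 and 34.4 FPKM (-0.90 ± 0.08, adjusted p = 6.0e-05), and cyclin A2, *Ccna2*, from 19.4, 22.7 and 22.7 to 12.9, 12.9 and 14.3 (-0.65 ± 0.08). The B-type cyclins were not called: *Ccnb1* went from 13.03, 12.3 and 14.03 to 10.03, 11.1 and 9.38 and did not reach 1.3-fold. The crosslinker of the central spindle, *Prc1*, showed the second largest fall of the 48, from 33.8, 46.1 and 36.9 to 14.7, 16.7 and 12.1 FPKM (-1.36 ± 0.15), and the activator of the anaphase-promoting complex, *Cdc20*, fell by 1.05 on the log2 scale. Topoisomerase II alpha, *Top2a*, went from 23.5, 20.3 and 23.8 to 16.7, 15.1 and 16.4 (-0.46 ± 0.08), whereas *Birc5* (survivin) stood at 21.6, 24.03 and 20.9 and then 20.7, 18.2 and 19.2, within 1.3-fold. *Mki67* itself went from 5.297, 5.77 and 5.4 to 4.42, 3.12 and 2.99 FPKM (-0.54 ± 0.13, adjusted p = 0.0081).

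Cell type markers moved at the same time. The 6 adipocyte markers all rose and their sum went from 2986 to 3252 FPKM at d0 to 36917 to 38605 at d3, whereas the 6 precursor or fibroblast markers all fell, from a sum of 3518 to 3829 to one of 709 to 822. The macrophage sum was 131 to 163 FPKM at d0 and 126 to 158 at d3. In bulk RNA, fewer cells of a type and less RNA per cell cannot be told apart, and the part of these shifts in the falls above was not tested. Under median-ratio scaling of the libraries, 25 of the 48 fell and 5 rose, with a median of -0.40 against -0.03 over all genes.

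In vWAT siCtrl cells the change over the same days was smaller. Between d0 and d3, 13 of 48 genes fell and 3 rose (27.1% and 6.25%, against 23.9% and 26.3% of 13368 tested genes), so that the share of falls was near the background, while the share of rises was below it. The median log2 difference was -0.28, against 0.01 over all tested genes. Replication genes held 7 of the 13 falls. *Tyms*, thymidylate synthase, went from 61.6, 65.3 and 59.1 to 36.1, 38.6 and 41.6 FPKM (-0.67 ± 0.07), *Mcm5* from 19.5, 19.7 and 19.3 to 11.5, 12.7 and 13.2 (-0.61 ± 0.06), and *Pcna* from 65.3, 63.1 and 58.5 to 39.7, 40.9 and 42 (-0.60 ± 0.05). In each of these the d3 libraries lay below all d0 libraries. *Prc1* went from 48.8, 40.3 and 36.4 to 26.1, 25.4 and 26.7 (-0.65 ± 0.10), and *Cdk1* from 85.7, 91.8 and 84.2 to 61.9, 66.3 and 58.4 (-0.48 ± 0.06). The genes that rose were cyclin D3, geminin and cyclin B2. *Ccnd3* went from 161, 155 and 152 to 238, 239 and 227 FPKM (0.59 ± 0.04), *Gmnn* from 10.8, 12.8 and 12.3 to 16.1, 17.8 and 19.6 (0.54 ± 0.09), and *Ccnb2* from 17.2, 15.9 and 14.6 to 20.5, 21.1 and 22.8 (0.41 ± 0.08), the last within 1.3-fold when d0 or d3 replicate 3 was left out.

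Most other members were not called in vWAT. *Mki67* stood at 6.16, 5.54 and 6.26 and 4.72, 4.76 and 5.398 FPKM, *Top2a* at 30.4, 25.1 and 24.4 and 22, 25.7 and 24.2, and *Birc5* at 29.6, 28.7 and 25.6 and 23.5, 30.9 and 28.5. For *Top2a* and *Birc5* the libraries of the 2 days overlapped. *Ccna2* went from 29.4, 28.6 and 26.3 to 21.9, 23.4 and 22.96 and *Ccnb1* from 20.2, 19.2 and 17.5 to 16.7, 15.2 and 14.7, both lower in every d3 library but under 1.3-fold. *E2f1* stood at 6.98, 6.34 and 6.301 and 7.93, 7.72 and 7.11 FPKM, *Ccne1* at 13.8, 16.5 and 12.99 and 15.5, 15.9 and 15.8, and *Cdk6* at 2.31, 2.14 and 2.63 and 1.51, 2.37 and 2.06. The adipocyte marker sum rose from 3965 to 3976 FPKM at d0 to 18842 to 19823 at d3, and the precursor sum fell from 2206 to 2293 to 1387 to 1485. As in BAT, the part of these markers in the changes was not tested.

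Whether the change over time differed between the depots was tested on the 12 siCtrl libraries by the interaction of depot and day. The change differed for 24 of 48 genes: it was lower in BAT for 20 and higher for 4 (adjusted p under 0.05), against 28.1% and 24.9% of 14111 tested genes called lower and higher. The 4 were *Cdk6* (1.24 ± 0.21, adjusted p = 0.00053), *Ccne1* (0.76 ± 0.14), *Gmnn* (0.55 ± 0.14) and *Mcm7* (0.51 ± 0.10). The lower terms were led by *Ccnd1* (-1.15 ± 0.30, adjusted p = 0.0082), the checkpoint kinase homologue *Bub1b* (-1.11 ± 0.12, adjusted p = 2.3e-05) and the mitotic kinase *Plk1* (-0.74 ± 0.19). *Bub1b* shows the split: it stood at 11.5, 11.8 and 12.2 FPKM at d0 and 5.95, 6.21 and 6.56 at d3 in BAT, and at 13.5, 11.8 and 15.8 and 17.8, 16.7 and 16.1 in vWAT. The d3 libraries lay below those of d0 in BAT and above them in vWAT, with no overlap in either. *Plk1* went from 14.1, 16.4 and 20 to 8.25, 8.81 and 8.89 in BAT, whereas the vWAT values, 18.1, 18.98 and 15.1 and 13.01, 16.7 and 17.5, overlapped. In the plot of both depots most genes lie below the line of equal change. The terms of *Anln*, *Cdk4*, *Nusap1* and *Pcna* did not pass without some single libraries, whereas the other 20 passed without each library in turn.

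**Figure D2:**
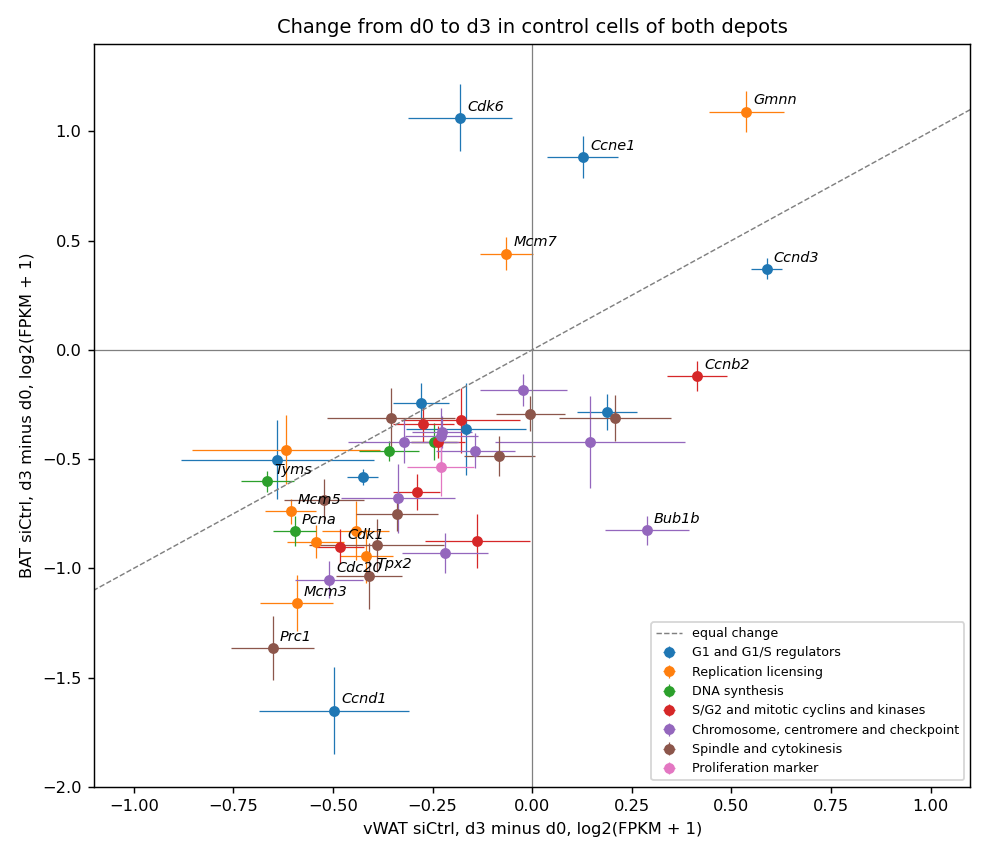
Change from d0 to d3 in siCtrl cells on the log2(FPKM + 1) scale, with vWAT on the horizontal and BAT on the vertical axis, 1 point per gene coloured by role, bars of 1 SE and a dashed line of equal change. Most points lie below the line and below 0 in BAT, *Ccnd1* lies lowest at -1.65, and *Gmnn*, *Cdk6*, *Ccne1* and *Mcm7* lie above 0 in BAT.

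Genes that hold the cycle back were measured beside the cycle genes. Of the 7 CDK inhibitors, 6 rose and 1 fell from d0 to d3 in vWAT siCtrl, and 3 rose and 1 fell in BAT siCtrl, beside 26.3% higher and 23.9% lower of all tested genes in vWAT and 29.9% and 35.3% in BAT. *Cdkn2c* (p18Ink4c, an inhibitor of Cdk4 and Cdk6) rose in both depots, from 10.4, 11.1 and 12.5 to 93.97, 99.9 and 95.98 FPKM in BAT (2.99 ± 0.07, adjusted p = 1.1e-07) and from 23.3, 20.2 and 21.2 to 75.03, 73.2 and 69.3 in vWAT (1.70 ± 0.06). The groups were far apart in both. *Cdkn1c* (p57Kip2) went from 1.51, 3.13 and 2.73 to 23.6, 24.6 and 20.5 FPKM in vWAT (2.82 ± 0.19) and from 4.23, 4.88 and 3.44 to 10.9, 8.31 and 8.02 in BAT (0.96 ± 0.15). *Cdkn2d* (p19Ink4d) rose by 0.58 ± 0.09 in BAT and 0.58 ± 0.11 in vWAT.

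Another 4 inhibitors differed between the depots in their change over time. *Cdkn1b* (p27Kip1) fell in BAT, from 14, 15.6 and 14.9 to 10.6, 9.65 and 11.2 FPKM (-0.46 ± 0.08), and rose in vWAT, from 16.4, 16.6 and 16.4 to 27.2, 27.9 and 25.4 (0.68 ± 0.05). *Cdkn2a* stood at 7.09, 6.38 and 6.49 and 7.72, 6.42 and 6.78 in BAT and rose from 10.6, 8.78 and 10.2 to 23.9, 22.5 and 23.5 in vWAT, and *Cdkn2b* (p15Ink4b) stood at 12.8, 12.96 and 12.4 and 14.9, 15.2 and 15.2 in BAT and rose from 15.7, 14.1 and 15.9 to 42.4, 38.4 and 41.5 in vWAT. *Cdkn1a* (p21), a target of p53, went the other way: it fell in vWAT from 229, 241 and 244 to 183, 189 and 177 and stood at 256, 259.8 and 249 and 329, 314 and 335 in BAT, higher in every d3 library but under 1.3-fold. The interaction of depot and day was called for 6 of the 7 (over all genes, 28.1% lower and 24.9% higher), lower in BAT for *Cdkn1b* (-1.14 ± 0.09), *Cdkn1c* (-1.86 ± 0.26), *Cdkn2a* (-1.105 ± 0.11) and *Cdkn2b* (-1.13 ± 0.08) and higher for *Cdkn1a* (0.73 ± 0.05) and *Cdkn2c* (1.28 ± 0.10). Reads of *Cdkn2a* can come from either of its overlapping products, which a value per gene does not separate.

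**Figure D3:**
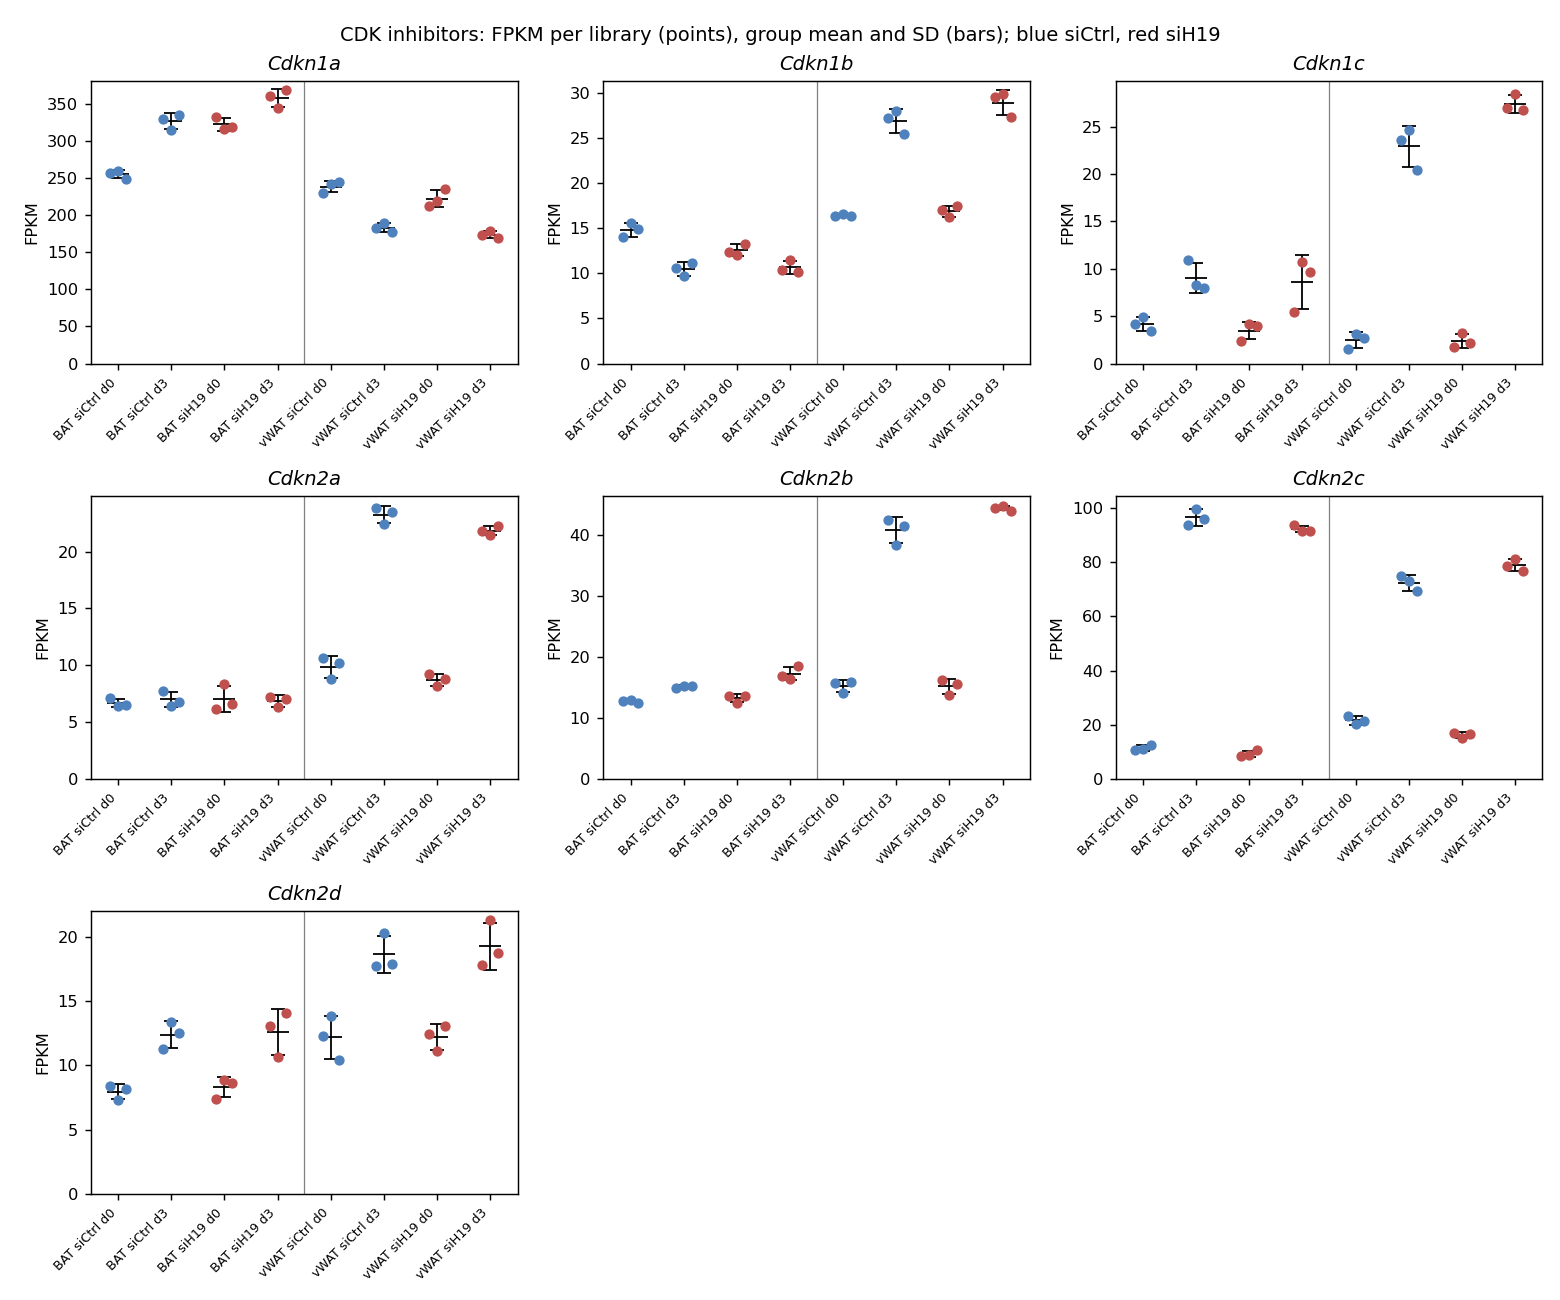
FPKM of the 7 CDK inhibitors in the 24 libraries (points; blue siCtrl, red siH19), with group means and SD as bars; each panel has its own axis from 0. *Cdkn2c* is high at d3 in both depots, *Cdkn1b*, *Cdkn2a* and *Cdkn2b* are high at d3 in vWAT, and *Cdkn1a* is higher in BAT than in vWAT at d3.

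Other genes of the pathway, 95 measured in all with the inhibitors, had 42 lower and 19 higher at d3 in BAT siCtrl (35.3% and 29.9% of all tested genes) and 20 lower and 19 higher in vWAT siCtrl (23.9% and 26.3% of all), so that in vWAT both shares were below the background. In BAT, 20 of 30 other mitosis genes fell and 3 rose, and 11 of 35 genes of origins and forks fell and 7 rose, the latter list below the background in both directions. In vWAT the same lists had 5 lower and 2 higher, and 5 lower and 5 higher. Of the transcription factors of late cell cycle genes, *Foxm1* went from 11.9, 15.4 and 14.3 to 4.97, 4.11 and 4.71 FPKM in BAT (-1.41 ± 0.11). Of the 6 listed p53 targets, 3 fell and 2 rose in BAT and 4 fell and 2 rose in vWAT. *Gadd45b* fell by 2.77 on the log2 scale in BAT and 0.62 in vWAT, and *Btg2* fell by 2.40 and 2.53.

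The depots were also compared directly at each day, in siCtrl cells. At d0, before induction, BAT precursors had 3 of 48 genes higher and 11 lower than vWAT precursors (6.25% and 22.9%, against 10.2% and 21.0% of 13139 tested genes), shares close to the background. The median difference was -0.21 over the 48 genes and -0.13 over all genes, and under median-ratio scaling -0.08 and -0.02. Cyclin D1 had the smallest adjusted p. Its 3 BAT libraries, given above, lay 3.17-fold above the vWAT libraries at 9.19, 9.75 and 8.23 FPKM (1.56 ± 0.07, adjusted p = 9.7e-06). *Ccnd2* was also higher in BAT (0.99 ± 0.20), with 124, 105 and 118 FPKM in vWAT, as was *Rrm2* (0.54 ± 0.06), with 50.99, 53.5 and 47.4. *Cdk6* was lower in BAT (-1.14 ± 0.09), and so were the centromeric histone variant *Cenpa* (-0.64 ± 0.05), with 28.9, 27.6 and 26.9 FPKM in BAT and 45.3, 43.8 and 42.8 in vWAT, and the kinase *Aurkb* (-0.71 ± 0.18), with 12.7, 9.19 and 10.2 and 21.7, 19.2 and 13.9. The call of *Aurkb* was lost without BAT replicate 2 or 3 or vWAT replicate 1 or 2 (adjusted p 0.051 to 0.057). Over all genes the scaling moved the calls from 1343 higher and 2753 lower to 1825 and 1974, and those of the 48 to 3 higher and 8 lower.

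At d3, BAT cells had 32 of 48 genes lower and 4 higher than vWAT cells (66.7% and 8.33%, against 32.1% and 16.5% of 13120 tested genes), with a median difference of -0.53 against -0.16 over all genes. All 9 spindle and cytokinesis genes were lower, as were 6 of 7 cyclins and kinases of S/G2 and mitosis. *Bub1b* differed most on the log2(FPKM + 1) scale (-1.30 ± 0.07, adjusted p = 8.4e-06), followed by *Ccnb2* (-1.02 ± 0.07), with 10.9, 9.54 and 9.76 FPKM in BAT and 20.5, 21.1 and 22.8 in vWAT, and *Mcm6* (-0.86 ± 0.12), with 15.2, 10.7 and 13.6 and 24.3, 26.1 and 23.3. *Cdk1* was lower in BAT by 0.79 on the log2 scale, with no overlap. The 4 higher genes were *Ccnd2* (0.79 ± 0.16), *Ccne1* (0.64 ± 0.05), *Gmnn* (0.49 ± 0.11) and *Rrm2* (0.44 ± 0.06), the last within 1.3-fold without vWAT replicate 1. *Ccnd1*, higher in BAT at d0, now overlapped between the depots, with 4.29, 6.71 and 7.801 FPKM in vWAT. Under median-ratio scaling 24 of the 48 were lower and 4 higher, with a median of -0.41 against -0.04 over all genes, and the calls over all genes went from 2162 higher and 4216 lower to 2792 and 3377. The calls of *Ect2*, *Kif23* and *Mki67* were lost without BAT replicate 2 or single vWAT libraries, and that of *Mki67* also without BAT replicate 3 (adjusted p 0.06 to 0.096). *Rrm1* was within 1.3-fold without BAT replicate 2 or vWAT replicate 2. Macrophage markers summed to 464 to 506 FPKM in vWAT and 126 to 158 in BAT at d3, and adipocyte markers to 18842 to 19823 and 36917 to 38605. Their part in the difference was not tested. These comparisons use the same siCtrl libraries as the changes over time.

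The siRNA against *H19* did not lead to a called change of these genes before differentiation. In BAT at d0, 0 of 47 tested genes were called by limma, against 1.94% of 12651 genes called either way, and 17 of the 47 had an unadjusted p under 0.05, all 17 lower in siH19. That is 36.2%, beside 19.6% of all tested genes, of which 1521 of 2482 were lower. *Cdk6* was below the filter on low values and was not tested. The median difference was -0.14, against -0.03 over all genes, and the smallest adjusted p was 0.075 (*Cdc20*, -0.37 ± 0.09). *Cdc20* stood at 35.9, 32.5 and 30.4 FPKM with siCtrl and 27.5, 23.3 and 24.9 with siH19. The values of *Mcm5*, 15.9, 15.8 and 14.97 against 13.5, 12.4 and 12.7, did not overlap either (-0.25 ± 0.06, adjusted p = 0.08). In vWAT at d0, 0 of 48 were called, against 1.53% of 13063 genes, and 9 had an unadjusted p under 0.05, all of them lower, with a median of -0.11 against -0.03. Their share of 18.8% was near the 17.6% of all tested genes, of which 1516 of 2303 were lower. The 95% intervals of the differences reached from -0.92 to 0.57 over the BAT genes and from -0.79 to 1.14 over the vWAT genes, so changes of these sizes are not excluded for the most variable genes. The interaction of depot and siRNA at d0 was called for 0 of 48 by limma, against 1.02% of 13708 genes called either way. An unadjusted p under 0.05 was found for 2 of the 48 (4.17%), below the 13.3% of all tested genes. Of the 7 CDK inhibitors, *Cdkn1a* was called in this interaction (0.44 ± 0.06, adjusted p = 0.012). At d0 siH19 libraries also had lower adipocyte markers, 4 of 6 in each depot, with sums of 1509.5 to 2025 FPKM against 2986 to 3252 in BAT and 2323 to 2625 against 3965 to 3976 in vWAT.

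At d3 in BAT, 4 genes were higher with siH19 and 0 were lower. That is 8.33% of the 48, against 6.39% of 12500 tested genes called higher and 2.18% called lower, so the share called was near the background. Over all 48, 40 differences were above 0, with a median of 0.20 against 0.05 over all genes, and 18 of the 19 with an unadjusted p under 0.05 were above 0. Over all genes 31.3% had such a p, against 39.6% of the 48, and 2533 of those 3913 were above 0. The 4 genes were cyclin D1, *Rrm2*, *Cdk1* and *Cdca8* (borealin, a subunit of the chromosomal passenger complex).

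*Ccnd1* stood at 12.1, 6.26 and 7.9 FPKM with siCtrl and 21.2, 18.7 and 19.2 with siH19. The siRNA groups did not overlap, with a 2.25-fold higher mean after siH19 (log2 difference 1.13 ± 0.20 SE, adjusted p = 0.015), and all lay below the d0 levels. *Rrm2* (chr12:24708241-24714146) stood at 52.7, 53.8 and 53.8 against 87.1, 82.8 and 81.9 FPKM (0.64 ± 0.04, adjusted p = 0.0014), so that the siH19 libraries also lay above the siCtrl libraries of d0. *Cdk1* (chr10:69336635-69352938) stood at 39.9, 32.5 and 34.4 against 47.7, 63.9 and 56.4 (0.63 ± 0.12, adjusted p = 0.018). *Cdca8* (chr4:124918465-124939311) stood at 8.26, 7.77 and 8.94 against 11.6, 11.4 and 10.8 (0.40 ± 0.08, adjusted p = 0.018). None of the 4 overlapped between the siRNAs. The calls of *Ccnd1* and *Rrm2* held without each library in turn. That of *Cdk1* was lost without siCtrl replicate 2 (adjusted p = 0.065) or 3 (0.056), and that of *Cdca8* without siH19 replicate 1 or 2 or siCtrl replicate 1 or 2 (0.051 to 0.066). Without siCtrl replicate 2, 2 genes were called.

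Most other members lay closer together. *Mki67* stood at 4.42, 3.12 and 2.99 FPKM with siCtrl and 4.13, 4.44 and 3.03 with siH19, and *Top2a* at 16.7, 15.1 and 16.4 and 22.1, 17.5 and 16.8. *Mki67* overlapped, while *Top2a* was slightly higher in all siH19 libraries. *Pcna* stood at 29.02, 27.3 and 27.9 and 33.9, 29.6 and 36.8 (0.24 ± 0.08, adjusted p = 0.11), *E2f1* at 5.32, 4.66 and 4.74 and 5.78, 5.94 and 6.13 (0.098), and *Birc5* at 20.7, 18.2 and 19.2 and 22.4, 21.97 and 23.1 (0.075). These 3 did not overlap but missed the threshold, and *Ccna2* overlapped, with 12.9, 12.9 and 14.3 and 13.6, 12.9 and 13.5 and a 95% interval of the difference from -0.16 to 0.16. *Ccnd2* and *Ccnd3* overlapped, at 187, 195 and 155 against 205, 188 and 178 and 180.3, 189 and 197 against 177, 185 and 209. *Gmnn* had the lowest difference (-0.36 ± 0.13, adjusted p = 0.12), with 22.3, 28.8 and 25.6 against 16.7, 22.4 and 20.2. Of the 93 other pathway genes 4 were higher and 1 lower, shares below the 6.39% and 2.18% of all genes, and 0 of 7 CDK inhibitors were called by limma, with 2 at an unadjusted p under 0.05. *Melk*, a kinase of dividing cells, was higher by 0.65 ± 0.12 and *Gadd45b* by 0.67 ± 0.08.

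Cell type markers of the BAT d3 libraries also differed between the siRNAs. Of 5 tested precursor or fibroblast markers 4 were higher with siH19, with a sum of 1065 to 1181 FPKM against 709 to 822, 2 of 4 macrophage markers were lower (79.7 to 90.4 against 126 to 158), and *Ucp1*, *Cidea* and *Elovl3*, the 3 brown adipocyte markers, were lower (284 to 313 against 454 to 526). The 6 adipocyte markers summed to 33653 to 35942 against 36917 to 38605, and 0 of 6 were called by limma, with 5 at an unadjusted p under 0.05. The part of these shifts in the higher cell cycle genes was not tested. Under median-ratio scaling 3 of the 48 were higher, *Cdca8* missing 1.3-fold, and the calls over all genes went from 799 higher and 272 lower to 629 and 410.

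**Figure D4:**
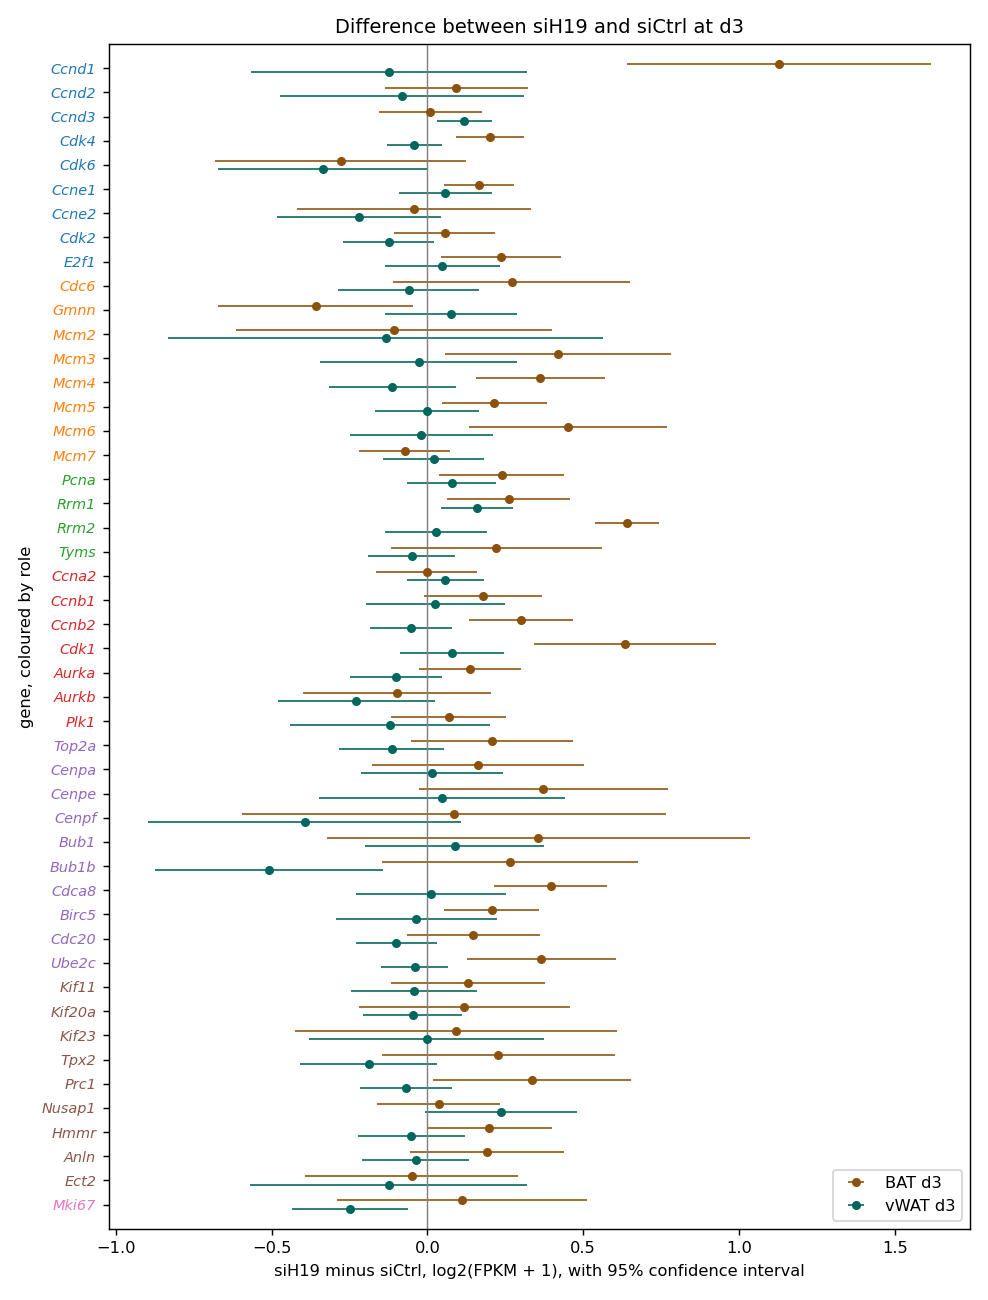
Difference between siH19 and siCtrl at d3 for the 48 genes on the log2(FPKM + 1) scale, with 95% confidence intervals from the limma fit of 6 libraries, in BAT (brown) and vWAT (green). In BAT most points lie to the right of 0, with *Ccnd1* at 1.13 and *Rrm2* and *Cdk1* near 0.64, whereas the vWAT points lie around 0.

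In vWAT at d3, 0 of 48 genes were called by limma, against 0.0305% of 13097 genes called either way. An unadjusted p under 0.05 was found for 5 of the 48 (10.4%), near the 10% of all tested genes. The median difference was -0.04, against -0.01 over all genes. *Ccnd1* stood at 4.29, 6.71 and 7.801 FPKM with siCtrl and 5.46, 5.76 and 5.35 with siH19, a difference of -0.12 ± 0.18 with a 95% interval from -0.57 to 0.32. *Rrm2* stood at 35.7, 42.01 and 40.1 and 39.3, 39.1 and 41.6, with an interval from -0.14 to 0.19, and *Cdk1* at 61.9, 66.3 and 58.4 and 66.7, 69.9 and 60.7, with an interval from -0.09 to 0.25. All 3 overlapped. *Cdca8* stood at 13.9, 17.2 and 14.3 and 14.1, 15.04 and 16.7. *Bub1b* had the lowest difference (-0.51 ± 0.15, adjusted p = 0.38), with 17.8, 16.7 and 16.1 against 15.1, 9.89 and 10.3.

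The difference between the depots in the siH19 effect at d3 was tested on 12 libraries. The interaction was higher in BAT for 7 of 48 genes and lower for 0, or 14.6%, against 7.02% of 13762 genes called higher and 3.52% called lower. The 7 were *Ccnd1* (1.25 ± 0.30, adjusted p = 0.027), *Rrm2* (0.61 ± 0.08, 0.0021), *Cdk1* (0.56 ± 0.15, 0.044), *Mcm4* (0.47 ± 0.12, 0.03), *Ube2c*, the conjugating enzyme of the anaphase-promoting complex (0.41 ± 0.11, 0.048), *Ccnb2* (0.35 ± 0.08, 0.021) and *Cdk4* (0.24 ± 0.06, 0.024). Of the 7 CDK inhibitors, *Cdkn1a* was called (0.21 ± 0.06, 0.038). Of the 6 listed p53 targets, *Gadd45b* (0.78 ± 0.11), *Btg2* (0.50 ± 0.07), *Mdm2* (0.34 ± 0.08) and *Ccng1* (0.27 ± 0.05) were higher, while *Gadd45a* and *Sesn1* were not called. Among the remaining other pathway genes, *Melk* (0.91 ± 0.15), *Ncapd2*, *Ncaph*, *E2f6* and *Incenp* were higher and *Lin37* (-0.70 ± 0.16) was lower. Of the members, only the term of *Rrm2* passed without each library in turn. The count was 3 without BAT siH19 replicate 1, vWAT siH19 replicate 1 or vWAT siH19 replicate 3, 4 without BAT siCtrl replicate 3 or vWAT siH19 replicate 2, 2 without BAT siCtrl replicate 2 or vWAT siCtrl replicate 2, and 1 without vWAT siCtrl replicate 3. It was 3 under median-ratio scaling, in which *Ccnd1*, *Rrm2* and *Ccnb2* were called and the split over all genes turned from 966 higher and 485 lower to 635 and 757.

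Last, the siH19 effect at d3 was compared with that at d0 within each depot, which asks equally whether the change over time differed between the siRNAs. In BAT the interaction of day and siRNA was higher for 14 of 48 genes and lower for 0, or 29.2%, against 7.79% of 13575 genes called higher and 1.27% called lower. From d0 to d3, siH19 cells had 15 of 48 genes lower and 6 higher, with a median of -0.24 (background 29.8% lower and 30.8% higher of 12962 genes, median -0.01), beside the 31 and 4 of siCtrl cells, whose libraries are others. *Ccnd1* led the interaction (1.25 ± 0.23, adjusted p = 0.0079): with siH19 it went from 26.6, 25.4 and 26.8 to 21.2, 18.7 and 19.2 FPKM (-0.40 ± 0.07), under 1.3-fold without d3 replicate 2. *Rrm2* stood at 82.4, 69.5 and 71.8 and 87.1, 82.8 and 81.9 with siH19 (0.64 ± 0.09 for the interaction, adjusted p = 0.0019), *Cdk1* at 61.4, 62.1 and 68.1 and 47.7, 63.9 and 56.4 (0.71 ± 0.15), and *Cdca8* at 13.4, 12.3 and 14.3 and 11.6, 11.4 and 10.8 (0.70 ± 0.12). With siH19 these genes thus fell less than with siCtrl or, for *Rrm2*, did not have a lower mean at d3. A term above 0 can also come from lower siH19 values at d0. The median siH19 effect in BAT was -0.14 over the 47 genes tested at d0 and 0.20 over the 48 at d3. *Cdca8* stood at 16.3, 18.7 and 15.4 FPKM with siCtrl at d0, above all siH19 libraries of that day. The other 10 were *Mcm6* (0.73 ± 0.20), *Ccnb2* (0.58 ± 0.09), *Cdc20* (0.52 ± 0.13), *Mcm4* (0.48 ± 0.10), *Mcm5* (0.47 ± 0.08), *Ube2c* (0.47 ± 0.12), *Hmmr*, a spindle protein (0.47 ± 0.11), *Pcna* (0.40 ± 0.11), *E2f1* (0.39 ± 0.09) and *Cdk4* (0.29 ± 0.05), with adjusted p from 0.0033 to 0.05 (rounded). The terms of *Mcm6*, *Pcna*, *Ube2c*, *Cdc20*, *E2f1* and *Hmmr* did not pass without some single libraries (adjusted p 0.052 to 0.11). They were lost without 10, 10, 9, 7, 7 and 6 of the 12 libraries in turn, while the other 8 of the 14 genes kept their call. *Cdc20* was lower in all siH19 libraries at d0, as given above, whereas at d3 its siRNA groups overlapped. It stood at 16.6, 14.1 and 15.4 FPKM with siCtrl and at 18.8, 16.6 and 15.97 with siH19 at d3. Of the other pathway genes, 15 of 95 were higher and 1, *Cdkn1a* (-0.20 ± 0.05, adjusted p = 0.04), lower.

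Other members of BAT also changed from d0 to d3. With siH19, *Ccne1* rose from 11.9, 14.2 and 14.6 to 28.7, 27.9 and 28.03 FPKM (1.01 ± 0.08), *Gmnn* from 10.6, 8.76 and 9.55 to 16.7, 22.4 and 20.2 (0.96 ± 0.12) and *Mcm7* from 16.4, 17.5 and 14.5 to 27.8, 26.4 and 26.1 (0.70 ± 0.08). The largest falls on the log2(FPKM + 1) scale were those of *Kif23*, a motor of the central spindle, from 23.3, 21.3 and 26.2 to 17.2, 12.7 and 9.37 (-0.84 ± 0.20), *Tpx2*, which activates Aurora A, from 22.5, 25 and 23.1 to 13.2, 15.02 and 11.6 (-0.79 ± 0.10), and *Prc1*, from 29.2, 33.6 and 32.5 to 16.1, 20.5 and 18.8 (-0.75 ± 0.10). The day and siRNA interaction was not called for these 6 (adjusted p = 0.08 for *Prc1*). The interaction count in BAT fell to 6 under median-ratio scaling (*Ccnd1*, *Rrm2*, *Cdk1*, *Cdca8*, *Mcm5* and *Ccnb2*), with the split over all genes going from 1058 higher and 172 lower to 524 and 334, and to 9 without siH19 d3 replicate 1, siH19 d0 replicate 3, siCtrl d3 replicate 2 or siCtrl d3 replicate 3. These tests share the siCtrl d3 libraries with the comparisons above.

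In vWAT the interaction of day and siRNA was called for 0 of 48 genes by limma, against 1.73% of 13948 genes called either way. An unadjusted p under 0.05 was found for 5 of the 48 (10.4%), below the 13.9% of all tested genes. Of the 7 CDK inhibitors, *Cdkn2c* was called (0.51 ± 0.09, adjusted p = 0.015). From d0 to d3, vWAT siH19 cells had 14 of 48 genes lower and 4 higher, against 24.5% and 28.2% of 13357 genes, with a median of -0.20 against 0.03. On the log2(FPKM + 1) scale *Ccne2* fell most, from 8.64, 9.45 and 11.9 to 5.19, 5.08 and 5.81 FPKM (-0.78 ± 0.12), followed by *Tyms*, from 64.9, 59.6 and 60.6 to 37.6, 37 and 37.5 (-0.71 ± 0.05), and *Cdk6*, from 3.19, 2.33 and 2.77 to 1.53, 1.105 and 1.41 (-0.68 ± 0.12). By the ratio of means *Cdk6* came first, 2.04-fold lower against 1.87-fold for *Ccne2*. *Ccnd3* rose from 148, 155 and 153 to 250.4, 263 and 252 (0.74 ± 0.04), *Nusap1*, a spindle protein, from 8.095, 4.97 and 5.37 to 8.76, 9.11 and 10.1 (0.55 ± 0.16), and *Ccnb2* from 15.1, 12.9 and 14.7 to 20.2, 20.9 and 20.9 (0.51 ± 0.07). The rise of *Nusap1* did not pass without siH19 d3 replicate 3 or siH19 d0 replicate 2 or 3 (adjusted p 0.062 to 0.068).

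**Figure D5:**
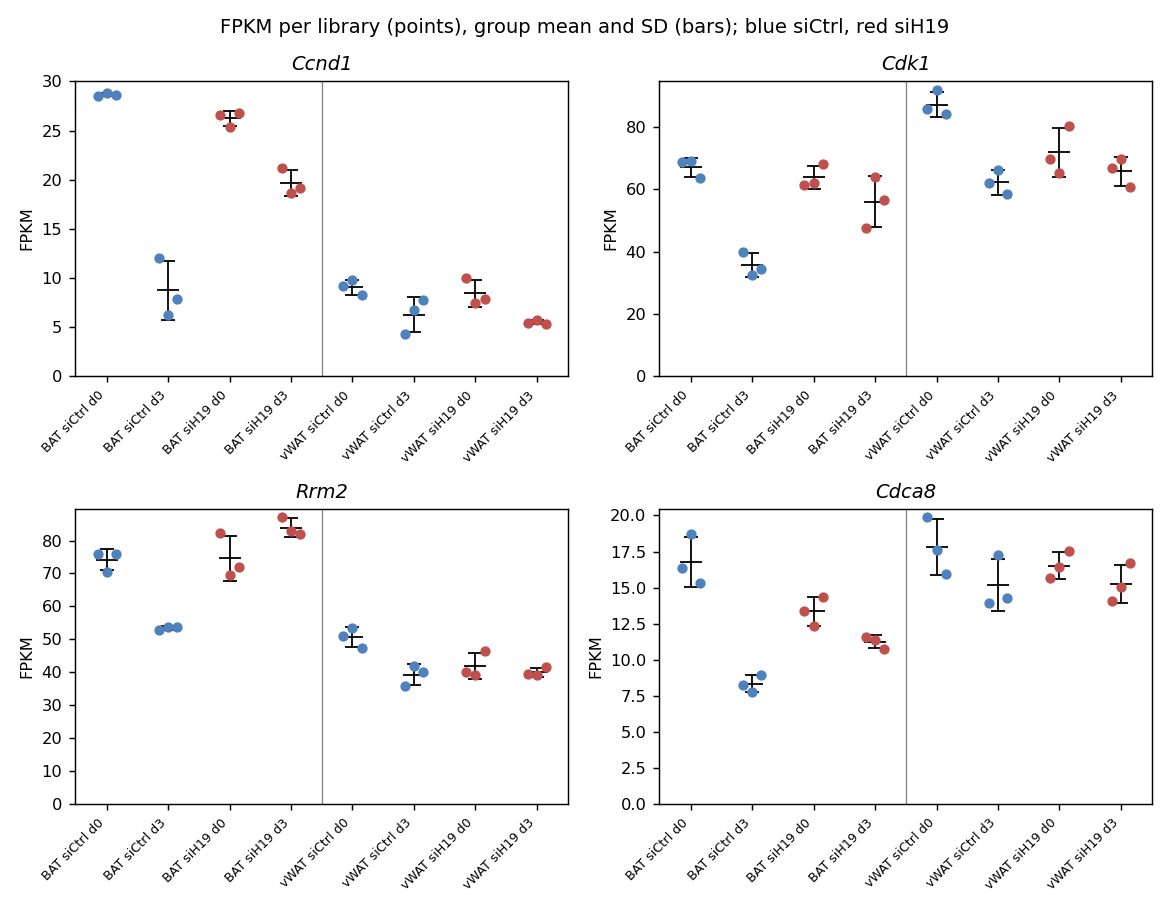
FPKM of *Ccnd1*, *Cdk1*, *Rrm2* and *Cdca8* in the 24 libraries (points; blue siCtrl, red siH19), with group means and SD as bars and axes from 0. In BAT at d3 the 3 siH19 points lie above the 3 siCtrl points in each panel, while the vWAT points at d3 overlap.

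A value per gene has limits for some members. The gene models of 13 of the 48 overlap another gene with a median of at least 1 FPKM, among them *Ccnd1* (*Oraov1*), *Ccnd3*, *Cdk4*, *Ccna2*, *Mcm7*, *Cdca8* and *Cdc20*, and 5 members (*Ccnd3*, *Pcna*, *Tyms*, *Ccnb1* and *Ccnb2*) have a named pseudogene. Whether reads were split between such genes is not given in the sources used here.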

How the data were processed

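RNA-seq of poly-A RNA was made from 24 libraries in 8 groups of 3. The authors deposited 1 table of FPKM values per gene, with no counts: reads were aligned with TopHat2 (2.0.10) to GRCm38 and quantified with Cufflinks (2.2.1 per the submitters' processing notes). The file does not name its unit, which was taken from the study's methods. Read length is described differently in the sources used here. The members and gene lists were chosen with earlier results of these data known. Groups came from the sample labels. Genes with at least 1 FPKM in at least 3 libraries of a comparison were tested on log2(FPKM + 1) by limma-trend (limma 3.58.1, R 4.3.3), 6 libraries for a pair of groups and 12 for an interaction, with Benjamini-Hochberg adjustment over all tested genes. Calls needed an adjusted p under 0.05 together with 1.3-fold or more, and for interactions the adjusted p alone. The scripts were tested on simulated data. With 3 against 3 libraries an exact permutation test cannot go below 0.1, so none was used.

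Values were given in every library for *H19*, 17 listed members and, per comparison, the 3 called members with the largest change in each direction. CDK inhibitors were reported for the changes over time and wherever called in an interaction, with examples among the called other pathway genes. Other members were named where a role or count called for it. Library sums of FPKM were 710794 to 841456, and 12311 to 13125 genes reached 1 FPKM. Alternatives were a pseudocount of 0.1, no filter, median-ratio scaling, a fit on all libraries, a replicate block, no minimum fold change (or 1.3 for interactions) and leaving out each library. Promoter sequences came from RefSeq, with 9 members not given. Python 3.11.15 with pandas 2.3.3 and matplotlib 3.10.9 was used for tables and plots.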

Additional observations from a re-analysis of the deposited data

Results flagged for a closer look

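The values here are interaction terms on the log2(FPKM + 1) scale whose limma test, adjusted over all tested genes, gave a p under 0.05, so that an effect differed between depots or between days. For the change from d0 to d3 in siCtrl cells, the term (BAT minus vWAT) was above 0 for *Cdk6* (1.24), *Ccne1* (0.76), *Gmnn* (0.55) and *Mcm7* (0.51). It was below 0 for *Ccnd1* (-1.15), *Bub1b* (-1.11), *Plk1* (-0.74), *Prc1* (-0.71), *Cdca8* (-0.71), *Tpx2* (-0.62), *Mcm3* (-0.57), *Cdc20* (-0.54), *Ccnb2* (-0.53), *Mcm6* (-0.53), *Nusap1* (-0.52), *E2f1* (-0.47), *Cdk1* (-0.42), *Anln* (-0.41), *Kif20a* (-0.40), *Ccna2* (-0.36), *Mcm4* (-0.34), *Pcna* (-0.24), *Ccnd3* (-0.22) and *Cdk4* (-0.16). Depot and medium cannot be told apart in these terms.

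For the siH19 effect at d3, the term (BAT minus vWAT) was above 0 for *Ccnd1* (1.25), *Rrm2* (0.61), *Cdk1* (0.56), *Mcm4* (0.47), *Ube2c* (0.41), *Ccnb2* (0.35) and *Cdk4* (0.24). For the siH19 effect in BAT, the term (d3 minus d0) was above 0 for *Ccnd1* (1.25), *Mcm6* (0.73), *Cdk1* (0.71), *Cdca8* (0.70), *Rrm2* (0.64), *Ccnb2* (0.58), *Cdc20* (0.52), *Mcm4* (0.48), *Ube2c* (0.47), *Hmmr* (0.47), *Mcm5* (0.47), *Pcna* (0.40), *E2f1* (0.39) and *Cdk4* (0.29). Both sets of terms use the BAT siH19 and siCtrl libraries of d3 and are not independent. In the second set the terms of *Mcm6*, *Cdc20*, *Ube2c*, *Hmmr*, *Pcna* and *E2f1* did not pass without some single libraries. In the first set only that of *Rrm2* passed without each library in turn. Single libraries were not tested for standing apart from the others of their group.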

How the results depend on the processing

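Over the 48 genes and all comparisons, 9646 of 10059 values under an alternative stayed on the same side of the threshold. Of the others, 270 were no longer called and 143 became called. Among values called in the main fit or under the alternative, 0 turned direction. For values called in neither, direction was not compared. The pseudocount of 0.1 and the fit on all 24 libraries moved no count of called genes by over 1.5 times. Without a minimum fold change, 26 genes were called for d3 against d0 in vWAT siCtrl, 25 for BAT against vWAT at d0 and 7 for siH19 in BAT at d3. The interaction of depot and siRNA at d3 was called for 3 genes without the filter on low values and for 3 under median-ratio scaling, and that of day and siRNA in BAT for 6 under this scaling. Replicate numbers did not pair the libraries: in 0 of 28 pairs of groups did all same-numbered libraries deviate together (correlation over 0.1), with correlations from -0.113 to 0.102. With the replicate number as a block, 2 genes were called for siH19 in BAT at d3 and 3 for the interaction of depot and siRNA at d3, and no other count moved by over 1.5 times.

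Leaving out each library in turn gave 2 to 6 genes for siH19 in BAT at d3, 1 to 6 for the interaction of depot and siRNA at d3 and 9 to 14 for that of day and siRNA in BAT. The ranges were 33 to 35 for d3 against d0 in BAT siCtrl, 17 to 21 in BAT siH19, 16 to 19 in vWAT siCtrl and 16 to 20 in vWAT siH19. They were 12 to 19 and 32 to 38 for BAT against vWAT at d0 and d3, and 20 to 25 for the interaction of depot and day. Of the calls over time in BAT siCtrl, those of *Aurka*, *Bub1*, *Rrm1* and *Cenpa* were also lost without single libraries. Read depth is unknown, so changes of genes near 1 FPKM, such as *Cdk6*, are the least precise, and their fold changes are understated by the pseudocount.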
